A study of Mus musculus with 48 samples.

Results

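Hox genes encode transcription factors with a homeodomain, a DNA-binding fold shared by the whole family. In the mouse they lie in 4 clusters, Hoxa to Hoxd, and each gene carries the number of its paralog group, which follows its place along the cluster. During development genes with low numbers act towards the head and genes with high numbers towards the tail, and adult tissues keep part of that code. The kidney forms from the intermediate mesoderm of the posterior trunk, and in mice the paralog group 11 genes are needed together for the metanephric kidney to form. The collecting duct grows from the ureteric bud, where the Hoxb7 promoter is widely used to drive transgenes.

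The members were every protein-coding gene of the deposited tables whose symbol is Hox followed by a cluster letter from a to d and a number. This gave 39 genes of 49585 in all, 11 in Hoxa, 10 in Hoxb, 9 in Hoxc and 9 in Hoxd. RNA was measured in kidneys of mice labelled WT that received D-alanine (D-Ala), the mirror form of the common amino acid L-alanine, or vehicle, at circadian times CT0, CT4, CT8, CT12, CT16 and CT20. Each of the 12 combinations had 4 libraries, 48 in all. The labels give neither dose, route, sex nor age, and name no deletion or transgene in either group. The values are FPKM (fragments scaled by gene length and library depth) in 2 tables of 24 libraries that were normalized separately, so contrasts were taken within tables. Levels over all libraries, by treatment or by time pool both tables unless a table is named. The SDs of such pooled means include the difference between the tables.

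Depth recovered from the steps of low values was 7626060 to 14403230 fragments per library (median 11601135), and every Hox value was a whole number of fragments within 0.05 in all 48 libraries. Every pair of replicates differed beyond sampling noise. The kidney-defining markers Umod, Slc34a1, Aqp2 and Slc12a3 were all present, and Slc34a1, a phosphate transporter of the proximal tubule, averaged 1903 ± 449 FPKM in D-Ala libraries and 1948 ± 327 FPKM in vehicle libraries (SD, n = 24 each). A single library stood apart. D-Ala CT0 replicate 2 had the highest level among all 48 of 12 members, Hoxb2, Hoxb4 to Hoxb9, Hoxa9, Hoxa11, Hoxd9, Hoxd10 and Hoxd11, together with 3231 FPKM of principal cell markers, against at most 1395 FPKM in any other library. The CT0 contrasts, the Hoxb correlations and the inner medulla slopes, which include it, are given with and without it. Slopes on the other marker scores also include this library and were not refitted without it.

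The promoter windows of 5 members are shown because the results below refer to them. On the deposited scaling, Hoxb8, Hoxb4 and Hoxd4 varied with markers of the inner medulla, while Hoxa7 and Hoxd8, the 2 highest members, did not. Hoxd4 was no longer called with quantile normalization, with each library centred on its median or in either table alone. Hoxb8 and Hoxb4 were not called in the second table alone. Hoxa7 went down with the markers when libraries were centred. Each is the 250 bases before the transcript start in RefSeq (GRCm38.p6), written 5′ to 3′ on the strand of the gene. Capitals mark matches, on either strand, to TGATNNAT (the site of a PBX and HOX pair), TTTATNG (letters like the site of posterior HOX proteins), CCAAT or GGGCGG.
Hoxb8 (chr11:96281655-96281904, plus strand): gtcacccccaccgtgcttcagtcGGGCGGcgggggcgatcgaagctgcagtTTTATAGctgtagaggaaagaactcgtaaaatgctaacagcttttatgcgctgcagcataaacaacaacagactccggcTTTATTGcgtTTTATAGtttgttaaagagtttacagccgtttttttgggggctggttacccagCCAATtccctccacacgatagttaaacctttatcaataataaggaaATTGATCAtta
Hoxb4 (chr11:96318017-96318266, plus strand): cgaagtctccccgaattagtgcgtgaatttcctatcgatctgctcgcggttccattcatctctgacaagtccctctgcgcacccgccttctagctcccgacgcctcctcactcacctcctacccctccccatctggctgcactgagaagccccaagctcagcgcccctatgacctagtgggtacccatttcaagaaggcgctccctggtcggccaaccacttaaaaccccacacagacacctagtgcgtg
Hoxd4 (chr2:74721728-74721977, plus strand): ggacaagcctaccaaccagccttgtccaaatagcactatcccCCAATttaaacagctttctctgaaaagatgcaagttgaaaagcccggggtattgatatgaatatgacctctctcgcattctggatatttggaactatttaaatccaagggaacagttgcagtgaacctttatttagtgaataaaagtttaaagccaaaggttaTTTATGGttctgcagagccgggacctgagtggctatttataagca
Hoxa7 (chr6:52218574-52218823, minus strand): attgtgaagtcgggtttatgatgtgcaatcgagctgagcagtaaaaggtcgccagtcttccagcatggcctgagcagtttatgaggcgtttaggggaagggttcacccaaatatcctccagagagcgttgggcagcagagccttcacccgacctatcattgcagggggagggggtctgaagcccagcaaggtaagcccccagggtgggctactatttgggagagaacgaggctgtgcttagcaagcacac
Hoxd8 (chr2:74704365-74704614, plus strand): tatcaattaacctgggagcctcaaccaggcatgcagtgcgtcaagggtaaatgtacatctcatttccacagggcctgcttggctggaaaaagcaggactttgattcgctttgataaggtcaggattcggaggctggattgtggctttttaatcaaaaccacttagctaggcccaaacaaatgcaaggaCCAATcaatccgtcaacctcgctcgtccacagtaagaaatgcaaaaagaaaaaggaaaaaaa

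RefSeq gave such a window for 22 of the 39 members, 24 windows in all, since Hoxa10 and Hoxd11 each have 2. Hoxb8 held 3 matches to TTTATNG and Hoxd4 held 1, and no other Hox window did, so 8.33% of the Hox windows held the motif, against 9.81% of all 32851 promoters in the table. TGATNNAT was found in 4 Hox windows (16.7%, against 7.68% of all promoters), those of Hoxa2, Hoxb1, Hoxb8 and a Hoxd11 start. CCAAT stood in 14 windows (58.3%, against 33.8% of all promoters) and GGGCGG in 10 (41.7%, against 32.7%). Hox windows held 2 to 35 CpG dinucleotides (median 12.5), against a median of 6.0 over all promoters. The Hoxb4 and Hoxa7 windows held none of the 4 motifs. These matches describe letters only, and nothing was measured at the promoters.

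Summed levels differed by paralog number, and were highest for groups 7 to 9 and at or near 0 for groups 12 and 13. Groups hold unequal numbers of genes, such as 2 in group 7, 3 in groups 6 and 8 and 4 in group 9. The sums depend on that number too. The median summed level over 48 libraries was 7.79 FPKM for group 2, 12.1 FPKM for group 3, 26.6 FPKM for group 4, 18.5 FPKM for group 5, 38.3 FPKM for group 6, 48.6 FPKM for group 7, 55.4 FPKM for group 8, 52.3 FPKM for group 9, 24.2 FPKM for group 10 and 2.51 FPKM for group 11, while the medians of groups 12 and 13 were 0. The Hoxb genes together held 31.4% to 58.2% of the summed Hox level (median 39.6%), the Hoxa genes a median of 26.7%, the Hoxd genes 21.7% and the Hoxc genes 10.2%.

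**Figure D1:**
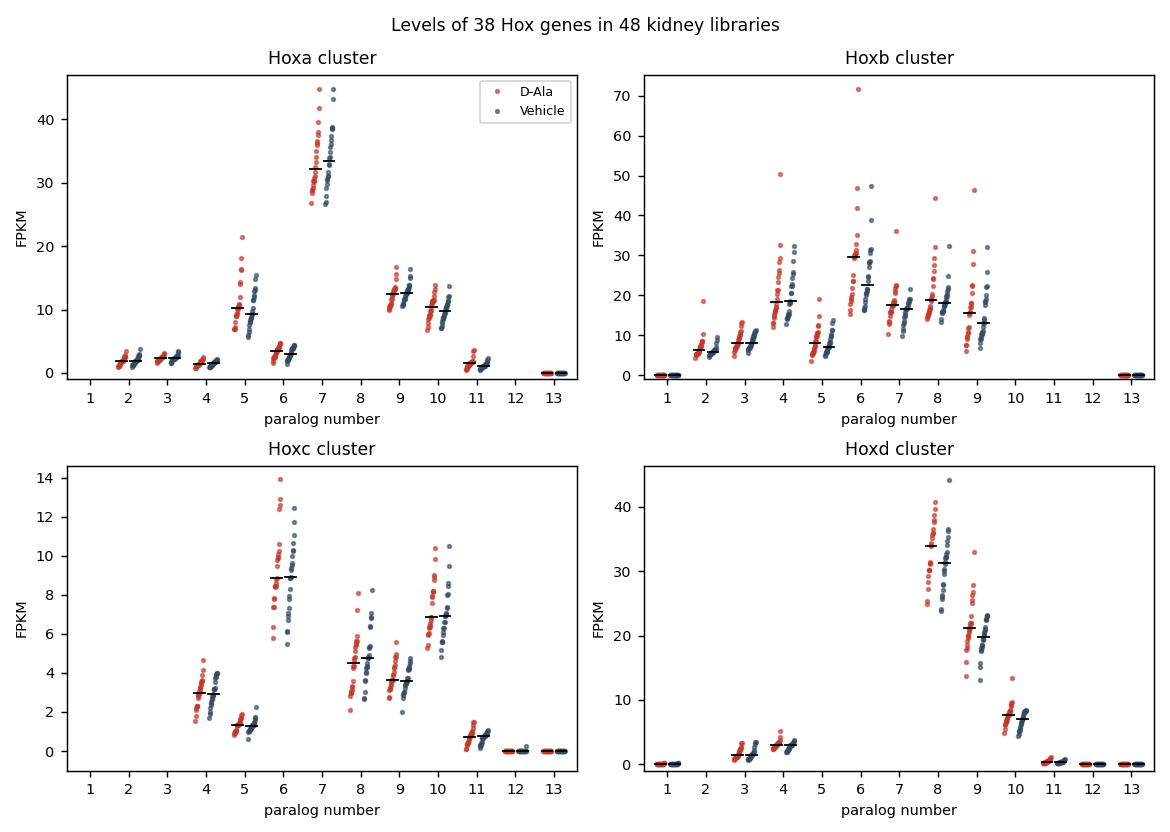
Levels of 38 Hox genes (FPKM, vertical axis, each panel with its own scale) against paralog number in the 4 clusters; each point is a library, with D-Ala left of Vehicle, and the black lines are medians. The highest medians are those of Hoxa7, Hoxd8 and Hoxb6, and paralog groups 12 and 13 lie at or near 0. The highest points of Hoxb2 and Hoxb4 to Hoxb9 come from a single library, D-Ala CT0 replicate 2.

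The 3 highest members belonged to 3 clusters. Hoxa7, a factor of the thoracic axial skeleton (chr6:52214491-52221854, minus strand), was highest by mean. It ran from 26.8 FPKM over a median of 32.1 to 44.8 FPKM in 24 D-Ala libraries, and from 26.7 over 33.4 to 44.8 FPKM in 24 vehicle libraries. By table it averaged 36.2 ± 4.49 FPKM in the first and 31.1 ± 3.25 FPKM in the second (SD, n = 24 each). Hoxd8 (chr2:74704615-74707933, plus strand) ran from 24.9 over 34.0 to 40.8 FPKM in D-Ala libraries and from 23.8 over 31.3 to 44.2 FPKM in vehicle libraries. Its table means, 30.2 ± 4.21 and 34.0 ± 4.32 FPKM, lay in the opposite order to those of Hoxa7. Hoxa7 was above Hoxd8 in 20 of 24 libraries of the first table and in 7 of 24 of the second, so their order depends on the table. Hoxb6 (chr11:96292476-96301569, plus strand) ran from 15.4 over 29.6 to 71.7 FPKM in D-Ala libraries and from 16.4 over 22.7 to 47.3 FPKM in vehicle libraries. Its range was the widest of the 3, with a coefficient of variation of 37.8% over all libraries, against 13.8% for Hoxa7 and 14.4% for Hoxd8.

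The next members in the order of means were Hoxd9, Hoxb4, Hoxb8, Hoxb7 and Hoxb9. Hoxd9, which acts with its group 9 paralogs in the mouse mammary gland, averaged 19.7 ± 4.06 FPKM in the first table and 21.7 ± 2.74 FPKM in the second. Hoxb4, known for its effect on blood stem cells, averaged 24.4 ± 7.61 and 16.7 ± 3.73 FPKM in the same tables. Hoxd9 was above Hoxb4 in 4 of 24 libraries of the first table and in 20 of 24 of the second, so these neighbours have no common order. Hoxb8, a factor of myeloid progenitors, averaged 21.7 ± 7.46 and 17.9 ± 2.36 FPKM, Hoxb7 16.9 ± 5.47 and 17.1 ± 2.26 FPKM, and Hoxb9 19.2 ± 9.08 and 12.3 ± 3.79 FPKM (SD, n = 24 per table). Hoxb9 had the largest spread of these 8, a coefficient of variation of 49.1%. Among the 13 members with the highest means, no neighbour stood above the next in all 48 libraries, and the largest count was 38 of 48, for Hoxb8 above Hoxb7.

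Below these, Hoxa9, Hoxa5, Hoxa10, Hoxc6, Hoxb3, Hoxb5, Hoxd10, Hoxc10 and Hoxb2 had table means between 5.97 and 12.9 FPKM. Hoxa5 is a factor of lung and neck development, and Hoxa10 and Hoxd10 belong to the paralog group that suppresses ribs in the lumbar spine. Among the remaining tested members was Hoxc8, a factor of brachial motor neurons, with 5.69 FPKM in the first table and 3.75 FPKM in the second. In all, 23 members had at least 1 FPKM in every library. Of the kidney-forming group 11, Hoxa11 had 0.509 to 3.58 FPKM in D-Ala libraries and 0.522 to 2.41 FPKM in vehicle libraries, Hoxc11 reached 1.49 FPKM in D-Ala and 1.09 FPKM in vehicle libraries, and Hoxd11 reached 1.03 FPKM in D-Ala and 0.721 FPKM in vehicle libraries.

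Tests were run on the 14922 genes with at least 1 FPKM in at least 4 libraries, which kept 30 of the 39 members. Hoxc11 was close inside, with 7 libraries at 1 FPKM or more, and Hoxd11 just outside, with 1. The other 8 members that did not pass were Hoxa13, Hoxb1, Hoxb13, Hoxc12, Hoxc13, Hoxd1, Hoxd12 and Hoxd13, most of them genes of the tail end, limb tips, prostate or hair. Hoxb13, Hoxc13 and Hoxd12 had no fragment in any library. A count of 0 over all libraries allows up to 0.00244 FPKM for Hoxb13, 0.00219 FPKM for Hoxc13 and 0.00213 FPKM for Hoxd12, from 3 fragments over the 48 libraries together, which covers counting error only. Hoxa13 had 2 fragments in all, Hoxc12 and Hoxd13 had 3 each, Hoxb1 had 7, and Hoxd1, a hindbrain and sensory neuron gene, had 36. Genes can share fragments where they overlap, which was not examined here. By gene start and end, introns included, 11 members overlap another Hox gene on the same strand. Among them are Hoxa3 with Hoxa4, Hoxa5 and Hoxa6, Hoxc5 with Hoxc6, Hoxc8, Hoxc9 and Hoxc10, and Hoxd3 with Hoxd4. Another possible source is the antisense genes Hoxb3os, Hoxb5os, Hoxa11os, Hoxd3os1, Hoxaas2 and Hoxaas3, which overlap 13 members by the same measure. No source used here says whether strand was read in the counting, so values of these members are uncertain to that extent.

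The first comparison asked whether D-alanine changed kidney levels of the Hox genes. None of the 30 tested members passed the threshold of 0.05 for the mean over the 6 times, by limma with Benjamini-Hochberg adjustment over all genes, where 1.74% of all genes passed and 1.59% passed as higher in D-Ala. At an unadjusted p under 0.05 there were 6 members, Hoxd10, Hoxa11, Hoxd8, Hoxd9, Hoxd4 and Hoxb7, which is 20% of the members against 20.5% of all genes, and limma voom on recovered fragments called 0. Of the members, 23 of 30 had a positive log2 change (76.7%, against 76.3% of all genes), with a median of 0.07 against 0.06 over all genes, on the log2(FPKM + 1) scale. That direction depends on the scaling: with each library centred on its median, 14 of 30 were positive, and the median was -0.004 against -0.01 over all genes.

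The smallest treatment p belonged to Hoxd10, a factor of the hindlimb motor column. It ran from 4.92 over 7.66 to 13.4 FPKM in D-Ala libraries and from 4.42 over 7.0 to 8.47 FPKM in vehicle libraries, so the groups overlapped. The log2 change was 0.16 ± 0.06 (SE), with an adjusted p of 0.14 by limma, and D-Ala was higher in 8 of 12 pairs of time and table. Hoxa11 had a median of 1.53 FPKM in D-Ala libraries and 1.09 FPKM in vehicle libraries, and its log2 change was 0.21 ± 0.09 (SE, adjusted p = 0.19 by limma). Hoxd8 had a log2 change of 0.10 ± 0.04 (SE, adjusted p = 0.19 by limma), with D-Ala higher in 9 of 12 pairs. Hoxd9 was higher in D-Ala in 10 of 12 pairs, the most of any member, with a log2 change of 0.13 ± 0.06 (SE, adjusted p = 0.22 by limma). Hoxa7, the highest member, had a log2 change of -0.02 ± 0.05 (SE, adjusted p = 0.83 by limma). By cluster, all 8 tested Hoxb genes and all 5 tested Hoxd genes were above 0 (medians 0.10 and 0.13), against 76.3% of all genes. So were 5 of 7 Hoxc genes (median 0.05) and 5 of 10 Hoxa genes (median 0.002), on the deposited scaling. The Hoxb genes varied together, so they are not separate results. Without D-Ala CT0 replicate 2, Hoxb4 was at -0.013, and the other Hoxb and Hoxd genes stayed above 0. Among these, Hoxb3 was at 0.009, Hoxb5 at 0.018 and Hoxd10 at 0.14 (adjusted p = 0.23 by limma). With centred libraries Hoxb4, Hoxa4 and Hoxc10 turned below 0 among the named members.

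**Figure D2:**
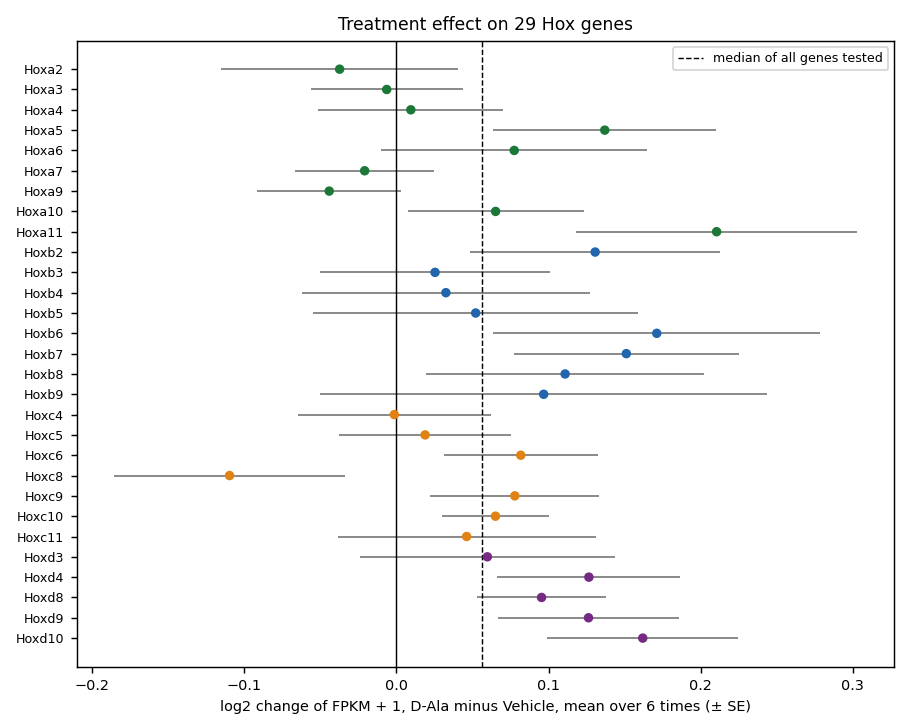
Log2 change of FPKM + 1, D-Ala minus Vehicle, averaged over the 6 times (horizontal axis; points with SE from limma) for 29 of the tested Hox genes, coloured by cluster (green Hoxa, blue Hoxb, orange Hoxc, purple Hoxd); the dashed line is the median of all genes tested. Points run from -0.11 for Hoxc8 to 0.21 for Hoxa11 around the dashed line at 0.06, and none passed the adjusted threshold.

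Rescaling to TPM, which sets every library to the same sum, called 4 members higher in D-Ala, Hoxd8, Hoxd9, Hoxd10 and Hoxc10, while 2668 genes were called among all tested, against 259 on the deposited scaling, and the median log2 change of all genes was 0.11. With the proximal tubule marker score as a covariate, 4 members were called, Hoxa11, Hoxb6, Hoxb7 and Hoxd10, beside 1865 genes in all. With the inner medulla score or the principal cell score as a covariate, 0 members were called, beside 167 and 872 genes in all.

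At single times no member passed either. At CT0, where 1.14% of all genes passed, 6 members had an unadjusted p under 0.05 (20%, against 22.0% of all genes). Hoxc6, a factor of the thoracic axis and brachial motor neurons, had 13.9, 12.9, 9.86 and 9.93 FPKM in D-Ala kidneys at CT0, against 8.87, 10.2, 6.16 and 9.36 FPKM in vehicle kidneys. Replicates 1 and 2 belong to the first table and replicates 3 and 4 to the second, and within each table both D-Ala values lay above both vehicle values. The log2 change was 0.40 ± 0.12 (SE, adjusted p = 0.078 by limma). Hoxd10 had 9.69, 13.4, 7.90 and 8.45 FPKM in D-Ala kidneys at CT0, against 8.24, 7.93, 6.31 and 5.84 FPKM in vehicle kidneys, again without overlap within either table (log2 change 0.41 ± 0.15, SE, adjusted p = 0.12 by limma). Hoxb7, Hoxa11 and Hoxa5 had log2 changes of 0.48, 0.56 and 0.38, and Hoxc8 one of -0.41. Without D-Ala CT0 replicate 2, an alternative chosen after the data were seen, 0 members were called by limma and 2 had an unadjusted p under 0.05 (against 0% and 10.5% of all genes). The log2 changes were then 0.39 for Hoxc6, 0.26 for Hoxd10, 0.28 for Hoxb7, 0.43 for Hoxa11, 0.38 for Hoxa5 and -0.42 for Hoxc8. At the other 5 times 0% of all genes passed. An unadjusted p under 0.05 was reached by 0 members at CT4 (2.55% of all genes), 1 at CT8 (Hoxd4, 14.8% of all genes), 2 at CT12 (Hoxd8 and Hoxd10, 2.27% of all genes), 1 at CT16 (Hoxc10, 4.74% of all genes) and 0 at CT20 (2.57% of all genes), and voom called 0 at every time.

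At CT12 Hoxd8 had 33.9, 28.4, 35.6 and 36.0 FPKM in D-Ala kidneys, against 23.8, 24.1, 25.9 and 28.0 FPKM in vehicle kidneys, and Hoxd10 had 6.91, 9.58, 6.60 and 8.18 FPKM against 5.16, 5.6, 4.70 and 5.12 FPKM. The groups did not overlap for either gene at that time, with log2 changes of 0.38 ± 0.10 and 0.51 ± 0.15 (SE), but both adjusted p were 1 by limma. For the treatment by time interaction, no gene passed among all tested (0%), 1 member had an unadjusted p under 0.05 by limma (Hoxd10, 0.025, against 3.53% of all genes) and voom called 0. The treatment effect did not pass as different between the tables for any member either (0% of all genes, 0 members at an unadjusted p under 0.05 by limma against 3.84% of all genes, 0 by voom).

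The next question was whether the Hox genes followed a daily rhythm. A 24 h curve common to both treatments passed for 6 of the 30 members, Hoxa4, Hoxc6, Hoxc10, Hoxb7, Hoxc4 and Hoxa5, which is 20% of them against 26.5% of all genes. Their fitted amplitudes were small, 0.11 to 0.20 on the log2 scale, and the median amplitude over all 30 was 0.10, as it was over all genes. Of the 6, 4 peaked between CT20 and CT24 (Hoxc6, Hoxb7, Hoxa5 and Hoxc10), 13.3% of the members against 8.65% of all genes, while Hoxa4 peaked at CT17.4 and Hoxc4 at CT8.86.

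Hoxa4, a factor of the cervical spine, had the smallest rhythm p. Its mean over 8 libraries was 1.49 ± 0.35 FPKM at CT0, 1.19 ± 0.28 at CT4, 1.29 ± 0.43 at CT8, 1.52 ± 0.27 at CT12, 1.88 ± 0.45 at CT16 and 1.73 ± 0.33 FPKM at CT20 (SD, n = 8 each). These means were lowest at CT4 and highest at CT16, as in the first table, with overlap between the times. In the second table the mean was lowest at CT8, with 1.09 FPKM, and highest at CT20, with 1.83 FPKM. The amplitude was 0.19 ± 0.04 (SE, adjusted p = 0.0017 by limma), on about 26 fragments per library. Hoxc6 averaged 10.2 ± 2.39 FPKM at CT0, 7.37 ± 1.26 FPKM at CT12 and 10.5 ± 1.92 FPKM at CT16 (SD, n = 8 each), and its amplitude was 0.19 ± 0.04 (SE, adjusted p = 0.0019 by limma) with a peak at CT21.1.

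Hoxc10, a lumbar patterning gene, had the smallest amplitude of the 6, 0.11 ± 0.03 (SE, adjusted p = 0.0041 by limma), with a peak at CT23.6. It averaged 6.39 FPKM at CT0 and 5.73 FPKM at CT12 in the first table, and 9.31 FPKM and 7.03 FPKM in the second. The Hoxc10 call was lost with quantile normalization (adjusted p = 0.12 by limma), with centred libraries (adjusted p = 0.13), without the table term (adjusted p = 0.21) and in the first table alone (adjusted p = 0.44). Hoxb7 averaged 20.9 ± 6.91 FPKM at CT0 and 14.6 ± 2.48 FPKM at CT12 (SD, n = 8 each), with an amplitude of 0.20 ± 0.05 (SE, adjusted p = 0.011 by limma). Its highest value, 36.1 FPKM, was that of D-Ala CT0 replicate 2, without which it was still called.

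Hoxc4, which in mouse B cells acts on antibody gene diversification, was the only one of the 6 with its lowest time mean at CT0. That mean was 2.1 FPKM, against 3.01 FPKM at both CT12 and CT20. The fitted curve, which peaked at CT8.86, has its trough nearer CT20 than CT0. Hoxc4 had 2.28, 1.53, 2.69 and 1.77 FPKM in D-Ala kidneys at CT0 and 4.15, 3.21, 3.47 and 3.53 FPKM in D-Ala kidneys at CT4. In vehicle kidneys it had 1.70, 2.02, 2.65 and 2.18 FPKM at CT0 and 4.01, 2.92, 3.24 and 3.17 FPKM at CT4. CT0 and CT4 thus did not overlap in either treatment, a pair of times picked after the values were seen. The amplitude was 0.17 ± 0.05 (SE, adjusted p = 0.033 by limma). For Hoxa5 the amplitude was 0.18 ± 0.05 (SE, adjusted p = 0.036 by limma), and its CT0 values split by table, with 13.4 to 21.5 FPKM in the first table and 5.98 to 10.7 FPKM in the second. The Hoxa5 call was lost without either of D-Ala CT0 replicates 1 and 2, among 13 libraries of the 48 left out in turn, and the Hoxc4 call in 3 of the 48. The Hoxa5 call was also lost with no filter on low values (adjusted p = 0.067 by limma), quantile normalization (adjusted p = 0.080), centred libraries (adjusted p = 0.094), rescaling without mitochondrially encoded genes (adjusted p = 0.076) and no table term (adjusted p = 0.22). The Hoxc4 call was also lost with no filter (adjusted p = 0.061 by limma).

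**Figure D3:**
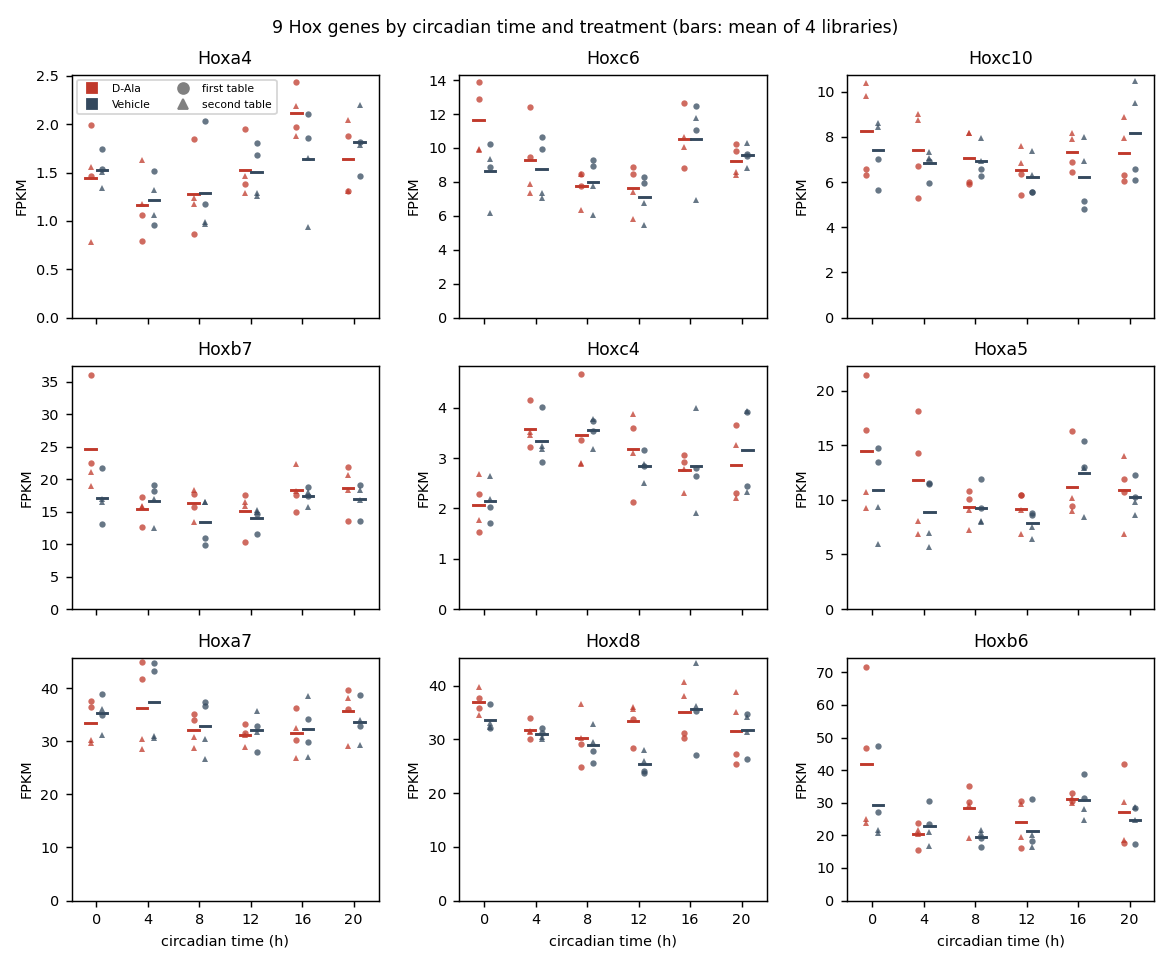
FPKM (vertical axes, from 0) against circadian time in hours for the 6 members with a called rhythm (top and middle rows) and the 3 highest members (bottom row); points are libraries, circles from the first table and triangles from the second, with D-Ala left of Vehicle, and bars are means of 4. Hoxc4 is low at CT0 in both treatments, and Hoxb6 shows its highest point, 71.7 FPKM, in a D-Ala library at CT0.

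Within D-Ala kidneys 2 members passed, Hoxa4 (amplitude 0.23, adjusted p = 0.023 by limma) and Hoxc6 (amplitude 0.23, adjusted p = 0.026 by limma), 6.67% of the members against 8.30% of all genes. Within vehicle kidneys no member passed by limma, against 9.77% of all genes, with 7 at an unadjusted p under 0.05 (23.3%, against 24.3% of all genes), and voom called 1, Hoxc9. The test of the difference between the treatments' rhythms passed for no gene (0%), with 1 member at an unadjusted p under 0.05 by limma (Hoxa6, 0.025, against 2.37% of all genes) and 0 by voom, so a rhythm in one treatment and not the other is not shown to differ. In the vehicle fit Hoxa4 had an amplitude of 0.16 and Hoxc6 one of 0.16. With the tables taken alone, the first called Hoxa7 and Hoxc8 (6.67% of the members, against 12.3% of all genes), and the second called Hoxb7, Hoxb9, Hoxc6, Hoxc9, Hoxc10 and Hoxd8 (20%, against 20.7% of all genes). Hoxa7 averaged 43.6 FPKM at CT4 in the first table and 30.1 FPKM in the second, where its highest mean was 32.6 FPKM, at CT20. Hoxa4, Hoxa5 and Hoxc4 were called in neither table alone, with 24 libraries each.

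The Hox genes also varied between libraries of the same group. After group and table means were removed, the 8 tested Hoxb genes varied together over the 48 libraries, with Pearson correlations of 0.57 (Hoxb2 and Hoxb3) to 0.91 (Hoxb6 and Hoxb9) over 28 pairs and a median of 0.80. The median was 0.85 within the first table, 0.71 within the second, and 0.77 without D-Ala CT0 replicate 2. The same median was 0.17 within Hoxa (45 pairs), 0.24 within Hoxc (21 pairs), 0.40 within Hoxd (10 pairs) and 0.12 between clusters (331 pairs). Paralogs of the same number had a median of 0.17 over 30 pairs. All these pairs share libraries and depth, and the values are descriptions, with no median over pairs of all genes beside them.

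**Figure D4:**
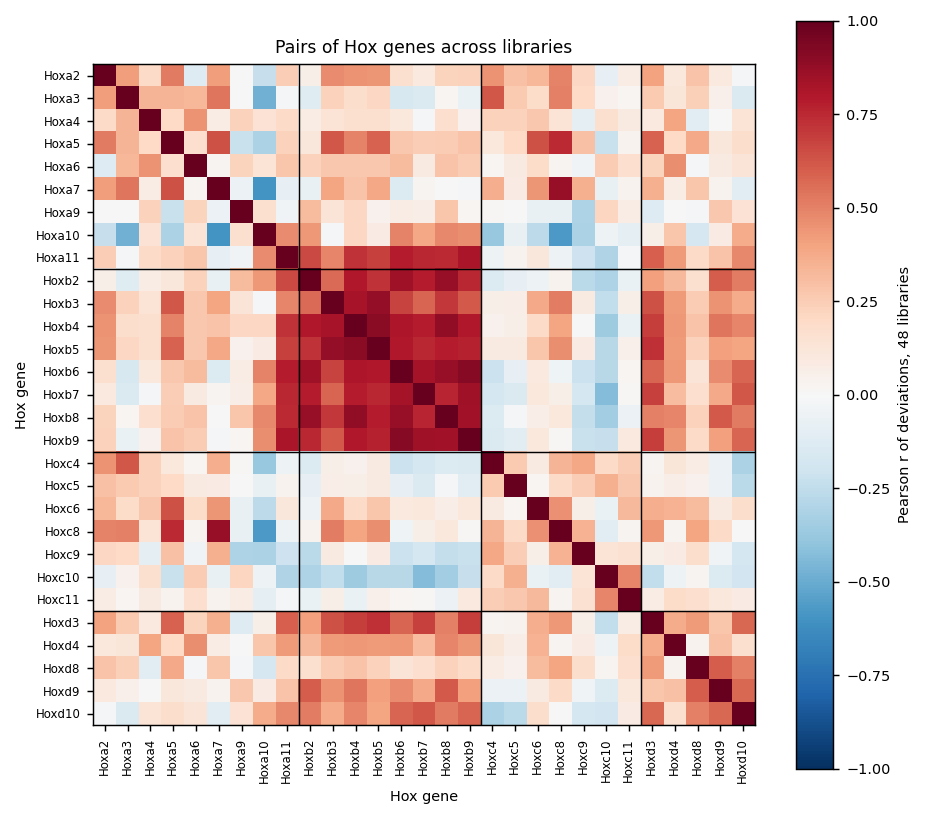
Pearson correlation (colour scale, -1 to 1) of deviations from group and table means over 48 libraries for each pair of 29 tested Hox genes, ordered by cluster and paralog number with lines between clusters. The Hoxb block is the most uniform, from 0.57 to 0.91, and Hoxa11 and Hoxd3 vary with it, while Hoxa7 pairs with Hoxc8 at 0.87.

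The range of the Hoxb genes is seen in single libraries. At CT0 Hoxb9 had 31.1, 46.4, 12.2 and 10.7 FPKM in D-Ala kidneys and 32.2, 14.3, 9.20 and 13.2 FPKM in vehicle kidneys. At CT16 the same gene had 15.9, 15.5, 15.9 and 18.2 FPKM in D-Ala kidneys and 25.8, 18.2, 20.1 and 13.7 FPKM in vehicle kidneys. High libraries thus occurred in both treatments and lay in the first table at CT0. Hoxb4 at CT0 had 32.7, 50.4, 14.9 and 13.1 FPKM in D-Ala kidneys and 32.4, 22.3, 14.4 and 15.4 FPKM in vehicle kidneys, and Hoxb6 had 46.8, 71.7, 25.1 and 23.7 FPKM against 47.3, 27.2, 20.7 and 21.7 FPKM. In these 3 genes the same libraries, replicates 1 and 2 of D-Ala and replicate 1 of vehicle, were the highest of their time.

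Markers of kidney segments moved with these genes. A score was made for each marker list as its mean log2(FPKM + 1), and a slope on it was fitted in the model of groups and table. For the inner medulla list (Aqp1, Slc14a2, Aqp4, Akr1b3, Slc5a3, Slc6a12, Fxyd2, Calca, Krt19 and Sprr1a, all 10 measured), 13 of 30 members had a slope above 0 past the threshold (43.3%, against 28.7% of all genes) and 0 had one below 0 (against 7.50%). By limma none of the slopes below 0 had an unadjusted p under 0.05. The 13 were all 8 Hoxb genes, Hoxa10, Hoxa11, Hoxd3, Hoxd4 and Hoxd10. No Hoxc gene was among them. In bulk tissue a larger share of a cell type and more RNA per cell cannot be told apart.

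Hoxb9 had the steepest slope, 0.73 ± 0.05 log2 units per log2 unit of score (SE, adjusted p = 2.6e-15 by limma), followed by Hoxb6 with 0.51 ± 0.04 (SE, adjusted p = 1.2e-12 by limma). Hoxa11 had a slope of 0.41 ± 0.04 (SE, adjusted p = 8.0e-10 by limma), and Hoxb3 the lowest of the Hoxb genes, 0.23 ± 0.05 (SE, adjusted p = 0.0010 by limma). The 2 highest members had slopes near 0, Hoxa7 -0.03 ± 0.04 (SE, adjusted p = 0.58 by limma) and Hoxd8 0.02 ± 0.04 (SE, adjusted p = 0.65 by limma). Of the promoters printed above, those of Hoxb8, Hoxb4 and Hoxd4 belong to members with a called slope (0.38, 0.37 and 0.13) on the deposited scaling. Those of Hoxa7 and Hoxd8 belong to members without one on that scaling.

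As descriptions over 48 libraries, the deviations of Hoxb9 and of the inner medulla score had a Pearson r of 0.935 and a Spearman rho of 0.915, and r was 0.923 without the 2 libraries farthest from the median score, 0.941 in the first table and 0.926 in the second. For Hoxb6 r was 0.901 over all libraries, 0.918 in the first table and 0.876 in the second, and for Hoxa11 it was 0.855, 0.894 and 0.794 in the same order. For Hoxa7 r was -0.134. All these values share libraries and depth.

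**Figure D5:**
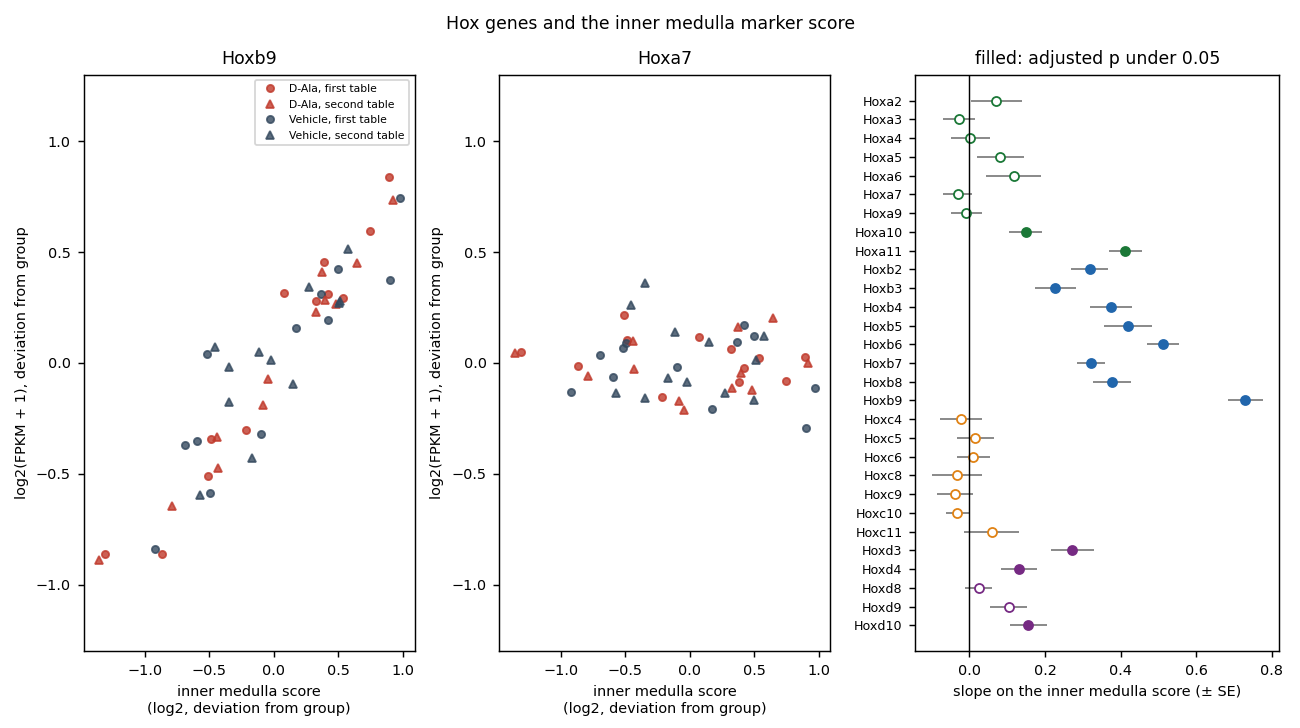
Left and middle, log2(FPKM + 1) of Hoxb9 and Hoxa7 against the inner medulla marker score, both as deviations from group and table means in log2 units; points are 48 libraries, by treatment and table. Right, slope on the score with SE for 29 tested genes, filled where the adjusted p is under 0.05. Hoxb9 rises with the score in both tables and treatments with a slope of 0.73, Hoxa7 does not, and all 8 Hoxb slopes are filled.

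The summed inner medulla level was 758 to 1520 FPKM in D-Ala libraries (median 977) and 674 to 1119 FPKM in vehicle libraries (median 961), and no listed marker was at 0 in all libraries. Aqp1 and Fxyd2 are also genes of other tubule segments and made up most of this sum; without them in the score the 13 calls were the same 13 members, and Hoxb9 had a slope of 0.59. Without D-Ala CT0 replicate 2 the members called were also the same 13. Leaving out each library in turn gave 12 to 14 members, with all 8 Hoxb genes in each of the 48 fits. All 8 Hoxb slopes were also called with quantile normalization and with centred libraries. In each, 10 members had a called slope above 0, against 15.7% and 13.1% of all genes. With quantile normalization 4 had one below 0 (against 20.8% of all genes), among them Hoxa3, Hoxc9 and Hoxc10. With centred libraries 6 had one below 0 (against 27.3% of all genes), among them Hoxa3, Hoxa7, Hoxa9, Hoxc9 and Hoxc10. For Hoxa7 the absence of a slope thus did not hold with centred libraries. The first table alone called 10 members (19.0% of all genes above 0), all 8 Hoxb genes among them, and the second alone called 2, Hoxb6 and Hoxb9 (3.04% of all genes). Hoxa10, Hoxd4 and Hoxd10 had no called slope above 0 with quantile normalization, with centred libraries or in either table alone.

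Several other marker lists gave called slopes for many of the same members. How the lists vary with each other was not tested. The principal cell score, of the collecting duct's water and salt transporting cells, had 13 members with a called slope above 0 (against 25.9% of all genes, and 0 below 0 against 8.88%), all 8 Hoxb genes, Hoxa5, Hoxa11, Hoxd3, Hoxd9 and Hoxd10. On the proximal tubule score, of the cortex, the same 13 members had a called slope below 0 (against 24.5% of all genes). Hoxc10 alone had a called slope above 0 there, 0.34 ± 0.12 (SE, adjusted p = 0.028 by limma, against 10.5% of all genes). The summed proximal tubule level was 27000 to 58390 FPKM in D-Ala libraries and 34920 to 69080 FPKM in vehicle libraries, and it was lowest in D-Ala CT0 replicates 1 and 2, with 28050 and 27000 FPKM.

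The endothelium score gave 13 members above 0 (against 30.3% of all genes) and 0 below (against 7.94%). The fibroblast score gave 14 above 0 (46.7%, against 19.3% of all genes) and 0 below (against 6.79%), and all 8 Hoxb genes were in each set. The macrophage score gave 9 members above 0 (30%, against 16.8% of all genes) and 0 below (against 7.99%), namely Hoxa2, Hoxa5, Hoxa7, Hoxb3, Hoxb4, Hoxb5, Hoxc6, Hoxc8 and Hoxd3. Hoxa7 had a slope of 0.46 ± 0.10 there (SE, adjusted p = 0.00069 by limma). The intercalated cell score, of acid secreting cells, gave 1, Hoxd8, at 0.45 (adjusted p = 0.049 by limma, against 0.275% of all genes above 0 and 0.0603% below). The summed macrophage level was 23.9 to 69.8 FPKM in D-Ala libraries and 23.7 to 50.9 FPKM in vehicle libraries. No marker of the inner medulla, principal cell or proximal tubule list passed for the mean D-Ala effect by limma. At an unadjusted p under 0.05 there were 1, 0 and 2 of them (against 20.5% of all genes). The median log2 changes were 0.22, -0.01 and 0.01 for those lists. None of the endothelium or urothelium markers passed by limma either, with 5 of 6 and 2 of 6 at an unadjusted p under 0.05 and median log2 changes of 0.18 and 0.49. Of the fibroblast markers 0 of 7 were called by limma, with 3 at an unadjusted p under 0.05, all 7 above 0 and a median of 0.19, and of the adipose markers 0 of 2, with both at an unadjusted p under 0.05 and a median of 0.74. With the inner medulla or the proximal tubule score as a covariate, 4 members had a called rhythm, Hoxa4, Hoxb7, Hoxc6 and Hoxc10 (13.3%, against 28.9% and 24.4% of all genes), and the calls of Hoxa5 (adjusted p = 0.094 and 0.13 by limma) and Hoxc4 (adjusted p = 0.081 and 0.11) were lost. With the principal cell score, 8 members were called, Hoxb4 and Hoxb9 besides the 6 (26.7%, against 32.2% of all genes). The part of the other cell types in the D-Ala and rhythm values of the Hox genes was not tested.

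Each of the 3 highest members had different nearest genes by the correlation of deviations over 48 libraries. For Hoxb6 they were Litaf (r = 0.94), Proser2, Fam174b, Bcam and L1cam (r = 0.93), the last an adhesion gene of the collecting duct. These genes lay closer to Hoxb6 than any other Hoxb gene did, of which Hoxb9 was nearest at 0.91. For Hoxa7 they were Hoxc8 (r = 0.87), Wdr4, Gsdmd, Ppcdc and Fam193b. For Hoxd8 they were Ctgf (r = 0.65), Kitl, Tmem117, Dll4 and Bet1l, at lower values than for the other two.

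Partners and regulators of the Hox genes were taken from lists, whose directions were not recomputed under other scalings. Over all genes, 26.5% had a called rhythm over both treatments, and 20.5% had an unadjusted p under 0.05 for D-Ala by limma. HOX proteins bind DNA with TALE homeodomain cofactors, and 7 of 9 of these were tested, of which 0 were called for D-Ala by limma, 1 (Pbx3) reached an unadjusted p under 0.05, and the median log2 change was 0.10. Pbx2, the most abundant, averaged 13.3 ± 1.31 FPKM in D-Ala kidneys and 13.1 ± 1.51 FPKM in vehicle kidneys (SD, n = 24 each). A rhythm over both treatments was called for 3 of the 7, Pbx2, Pbx4 and Pknox1, the last with an amplitude of 0.23 and a peak at CT22.7 (adjusted p = 3.4e-07 by limma). Polycomb proteins keep Hox genes silent and trithorax proteins keep them active. Of 36 tested genes of both groups, 13 had an unadjusted p under 0.05 (36.1%, against 20.5% of all genes) and 1 was called higher in D-Ala, Pcgf1, a Polycomb ring finger gene. It averaged 6.78 ± 1.02 FPKM in D-Ala kidneys and 5.91 ± 0.70 FPKM in vehicle kidneys, with a log2 change of 0.16 ± 0.05 (SE, adjusted p = 0.048 by limma). The list's median was 0.08 against 0.06 over all genes, with 34 of 36 above 0 against 76.3% of all genes, and Rbbp7 was next at 0.14 (adjusted p = 0.055 by limma). A rhythm was called for 4 of the 36 (against 26.5% of all genes), Cbx7, Kdm6b, Dpy30 and Kmt2d.

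Retinoic acid, an inducer of Hox genes in embryos, was covered by 13 tested genes of 18. None was called for D-Ala by limma (3 at an unadjusted p under 0.05), but all 13 were above 0 on the deposited scaling, with a median of 0.14, against 76.3% and a median of 0.06 for all genes. Of these Rxra, a retinoid receptor, was nearest to the threshold, with 21.2 ± 3.71 FPKM in D-Ala kidneys and 19.1 ± 2.69 FPKM in vehicle kidneys (SD, n = 24 each, log2 change 0.14, adjusted p = 0.053 by limma). A rhythm was called for 5 of the 13 (against 26.5% of all genes). Rdh10, which makes retinal from retinol, had an amplitude of 0.44 with a peak at CT22.8 (adjusted p = 2.6e-10 by limma), and Dhrs3, which turns retinal back to retinol, had an amplitude of 0.26 with a peak at CT1.28 (adjusted p = 6.1e-05 by limma). Aldh1a1 and Rxra were also among them.

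Of 25 tested genes of other kidney patterning factors, 0 were called for D-Ala by limma. At an unadjusted p under 0.05 there were 2 (8%, against 20.5% of all genes), Itga8 and Osr2. Their log2 changes were 0.19 and 0.20, with adjusted p = 0.12 and 0.14 by limma. A rhythm was called for 8 of the 25 (against 26.5% of all genes), among them Itga8, Osr1, Pax8, Sall1, Tfap2a, Tfcp2l1 and Wt1. Hnf4a, the highest of the list, averaged 112 ± 36.5 FPKM in D-Ala kidneys and 102 ± 22.9 FPKM in vehicle kidneys. Of the noncoding genes of the clusters, 10 of 16 were tested. For D-Ala 0 were called by limma, with 2 at an unadjusted p under 0.05 (20%, against 20.5% of all genes). For a rhythm 4 were called (against 26.5% of all genes), Hoxb5os, Halr1, Hoxd3os1 and Mir196a-1. Hoxb5os averaged 21.1 ± 4.51 FPKM in D-Ala kidneys and 19.7 ± 4.22 FPKM in vehicle kidneys, with an amplitude of 0.18 and a peak at CT1.13 (adjusted p = 0.0035 by limma). It lies antisense to Hoxb5 and Hoxb6, neither of which had a called rhythm (adjusted p = 0.66 and 0.12 by limma). Mir196a-1, a microRNA gene model in the Hoxb cluster, averaged 34.3 ± 12.2 FPKM in D-Ala kidneys and 32.5 ± 12 FPKM in vehicle kidneys. Outside the clusters, 9 flanking coding genes were tested. For D-Ala 0 were called by limma, with 3 at an unadjusted p under 0.05 (33.3%, against 20.5% of all genes). For a rhythm 1 was called (against 26.5% of all genes), Calcoco1 beside Hoxc. It had an amplitude of 0.22 and a peak at CT7.13 (adjusted p = 0.00060 by limma).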

How the data were processed

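The authors deposited FPKM values in 2 tables, 1 column per library. The submitters' processing notes name GRCm38 (mm10); aligner, counter and strand setting are not stated there. Replicates were numbered in sample order. The tables were taken as the 2 runs the series text mentions, an inference. A model of 12 groups with table as an additive term was fitted to log2(FPKM + 1) in limma 3.58.1 (R 4.3.3, trend), on genes with at least 1 FPKM in at least 4 libraries, and two-sided p-values were adjusted by Benjamini-Hochberg over all 14922 genes. Fold changes on this scale understate low genes. Rhythms were cosine and sine terms of 24 h. Fragments were recovered from the FPKM steps with GENCODE M21 exon lengths, and 92.0% to 93.4% of values under 20 fragments came out whole within 0.05; depth comes from this step, and voom was run on these fragments. Methods were tested on simulated data. Named members were the 8 highest, any called, and the 3 with the smallest p for treatment and for rhythm; each list gave its highest, called and smallest-p genes. Alternatives covered scaling, filter, pseudocount, table, covariates and each library left out. Members and lists were chosen with earlier results of these data known. Homeodomain sequences were not used here. The series text says kidneys came from different mice but does not tie libraries to mice, so p-values measure the spread between libraries. Values of some members and list genes are not reported here, though counts and medians include them.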

Additional observations from a re-analysis of the deposited data

Results flagged for a closer look

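Among the 15 named members, 180 groups of 4 libraries were screened for a library far from the rest of its group. Of these, 7 were flagged, which is no more than the share of about 1 in 20 that chance would give. Each group mixes libraries of both tables, and members vary together, so the screens are not independent. In D-Ala CT0, Hoxd9 was 33.0 FPKM in replicate 2 and 20.1 to 22.0 FPKM in the others. In vehicle CT16, Hoxd9 was 18.1 FPKM in replicate 2 and 22.5 to 23.2 FPKM in the others. In D-Ala CT16, Hoxa5 was 16.3 FPKM in replicate 2 and 8.99 to 10.2 FPKM in the others. In vehicle CT0 replicate 1, Hoxb8 was 32.5 FPKM (15.8 to 18.6 FPKM in the others) and Hoxa11 was 2.09 FPKM (0.832 to 1.01 FPKM in the others). In vehicle CT12 replicate 2, Hoxb7 was 11.5 FPKM, below the others at 14.7 to 15.3 FPKM. In vehicle CT8 replicate 1, Hoxd10 was 4.42 FPKM, below the others at 6.81 to 7.25 FPKM. Of these libraries, D-Ala CT0 replicate 2 and vehicle CT0 replicate 1 also had 3231 and 1018 FPKM of principal cell markers; their part in the values was not tested.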

How the results depend on the processing

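No paired analysis was possible because the replicate numbers were given in accession order and pair no samples. For the mean D-Ala effect, the count of 0 Hox genes became 4 after rescaling to TPM and 4 with the proximal tubule covariate, which was added after seeing the data, as was every slope alternative; leaving out single libraries gave 0 to 0. At single times it became 4 under TPM, and 0 to 1 with single libraries left out, the 1 arising without vehicle CT0 replicate 1 or D-Ala CT0 replicate 4. The vehicle rhythm count of 0 became 1 with pseudocount 0.1, TPM, without mitochondrial genes, table by time, voom, each of the 3 covariates, times as a factor and 1 treatment alone, 2 in the second table, and 0 to 2 with single libraries left out (13 libraries changed it). The D-Ala rhythm count of 2 became 1 under quantile, centred and mitochondria-free scaling, times as a factor and 1 treatment alone, 0 without the table term and in either table, 5 with the principal cell covariate, and 1 to 3 with single libraries left out. It was 1 without D-Ala CT0 replicates 1 or 2, CT4 replicate 1, CT8 replicates 1 or 3, CT12 replicate 4, or CT16 replicates 2 or 4. The count of 6 over both treatments became 2 in the first table and 5 under mitochondria-free scaling. It became 4 under quantile and centred scaling, without the table term, and with the inner medulla or proximal tubule covariate. It became 7 with times as a factor, 8 under TPM, table by time and the principal cell covariate, and 4 to 9 with single libraries left out. With no filter it was 6, with Hoxd1 and Hoxd11 in place of Hoxa5 and Hoxc4. The share of all genes with a called rhythm moved too, from 26.5% in the main fit. It was 12.3% in the first table, 23.7% mitochondria-free, 25.8% quantile, 24.7% centred and 14% without the table term. With the inner medulla, proximal tubule and principal cell covariates it was 28.9%, 24.4% and 32.2%. Times as a factor gave 20.5%, TPM 25.5%, table by time 27.7% and no filter 11.8%. The 13 inner medulla slopes became 2 in the second table, 10 in the first table and under quantile and centred scaling, and 12 to 14 with single libraries left out. The counts for interaction, rhythm difference and treatment by table were 0 in every alternative run. Fitted log2 changes that turned sign were all small. Hoxa7 was 0.034 under TPM and 0.020 in the first table. Hoxb4 was -0.029 under quantile, -0.037 under centred and -0.038 under mitochondria-free scaling, -0.081 in the second table, -0.073 with the inner medulla covariate, and -0.013 to 0.065 with single libraries left out. Hoxb9 was -0.11 with the inner medulla covariate. Hoxa4 was -0.044 under quantile, -0.060 under centred and -0.044 under mitochondria-free scaling, -0.050 in the first table, -0.0060 by voom, and -0.011 to 0.031 with single libraries left out. Hoxc10 was -0.0088 under quantile and -0.0045 under centred scaling. Hoxc4 was 0.045 under TPM, 0.024 in the first table, 0.0051 and 0.00018 with the inner medulla and principal cell covariates, and -0.022 to 0.023 with single libraries left out. The cause was not tested. Amplitudes of the named members kept their side of the threshold in 886 fits, fell short in 38 and newly passed in 21. Depth limits the low members, such as Hoxa4 at a median of 26 fragments.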
